A study of Rattus norvegicus with 7 samples.

Results

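The Zfand genes encode proteins with an AN1-type zinc finger, a small fold held together by zinc. The genes Zfand1, Zfand2a, Zfand2b, Zfand3, Zfand5 and Zfand6 were followed in NR8383 cells, a line of rat alveolar macrophages from lung lavage, after exposure to zinc oxide nanoparticles (ZnO NPs). Members were all array probes that the files name with 1 of these 6 gene names. Of the 6 names, 5 were on the array, with 7 of its 45598 probes, and 5 of these probes (1 for each gene) were among the 20050 probes tested. No probe carried the name Zfand1. A single probe, named only by a transcript number in the files, has a description that names Zfand1, and its values are given apart as Zfand1 by description. Exposed cells had received ZnO NPs for 4 h without serum (n = 3 arrays), at 2 µg/mL according to the sample labels, while the text of the study gives a higher dose. Control cells had spent the same 4 h without serum and without NPs (n = 4 arrays). Each array measured the total RNA of 1 biological replicate in 1 colour.

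As background, AN1 zinc finger proteins link damaged proteins to their removal. In human and yeast cells exposed to arsenite, ZFAND1 brings the proteasome and the ATPase p97 to stress granules, where stalled mRNAs gather. ZFAND2A (also called AIRAP) is an arsenite-inducible protein that binds the proteasome and is switched on by the heat shock factor HSF1, whereas its relative ZFAND2B (AIRAPL) is made without stress and sits at the membrane of the endoplasmic reticulum. ZFAND5 and ZFAND6 pair the AN1 finger with an A20 finger that binds ubiquitin, and both act on NF-kB signalling in human cells.

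None of the member genes passed the test after ZnO, and the largest differences were those of Zfand2a and Zfand2b, each with all ZnO arrays above all control arrays. The value of a gene was the log2 of its background-corrected intensity minus that of the array's 75th percentile. At an adjusted p under 0.05 from limma, 0 members were higher and 0 lower, against 10 of all 20050 probes (0.0499%), all of them higher. The thresholds of the study (a fold over 1.5 with an adjusted p below 0.001) also gave 0 members, against 4 of all 20050 probes. At the same thresholds the study reports many more genes after ZnO, most of them higher. Calls of any kind were few here. The study itself, with its own normalization, lists Zfand2b as overexpressed after ZnO, by a larger fold than was found here. The fold of Zfand2b was 1.20 here, with an interval of 1.05 to 1.37. The fold listed by the study lies above this interval, so its size was not reproduced, and the cause was not tested. Before adjustment, 2 of the 5 members were higher at a p under 0.05 and 0 were lower, against 3.06% of all probes that were higher and 5.93% in either direction. For the same 2 members every ZnO array lay above every control array, as it did for 3.8% of all probes. The members were chosen with earlier results of these arrays known, and 5 genes are too few for a share to be read against these percentages. The median log2 fold change of the 5 members was 0.15, and that of all probes was -0.01.

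Genes known to answer to zinc passed the test. The study had already reported the 3 genes given here as higher after ZnO, and they were chosen with that known. The metallothioneins Mt2A and Mt1a, which bind zinc in the cytosol, rose by log2 fold changes of 5.83 ± 0.13 (SE, the standard error; limma, adjusted p = 3.8e-06) and 3.40 ± 0.11 (SE; adjusted p = 3.68e-05). The zinc exporter Slc30a1 rose by 1.37 ± 0.09 (SE; adjusted p = 0.00277), a call that was lost with spike-in centring (adjusted p = 1), no filter on dim probes (0.0635), no variance moderation (0.0511) or a replicate block (0.221). Among markers of the cell type, 12 of 14 macrophage markers were measured, at a summed level of 215 to 244 on ZnO arrays and 214 to 223 on control arrays, relative to the 75th percentile set to 1. Lyz2, Tyrobp, Fcer1g and Cd68 made up most of this sum, while others, Cd14 and Msr1 among them, lay below the 75th percentile. Itgax and Marco, usual markers of alveolar macrophages, were not among those measured. No probe was found for Itgax, whereas Marco had a probe that was not bright enough to be tested. Of 8 epithelial markers, 0 were bright enough to be tested. Markers of other cells were measured for 3 of 6 endothelial (summed level 2.69 to 3.88 on ZnO arrays and 2.57 to 3.45 on control arrays, mostly Vwf), 3 of 7 neutrophil (0.57 to 0.62 on ZnO arrays and 0.45 to 0.64 on control arrays), 2 of 6 fibroblast (0.26 to 0.30 on ZnO arrays and 0.25 to 0.33 on control arrays) and 2 of 8 lymphocyte markers (0.08 to 0.13 on ZnO arrays and 0.10 to 0.14 on control arrays), and 0 of them passed the test. The intensity at the 75th percentile was 980 to 1603 on ZnO arrays and 958 to 1489 on control arrays. All arrays lay on 1 slide, and the first position number in the array barcodes was 1 for all control arrays and 2 for all ZnO arrays. For every value given here, exposure cannot be told apart from the place on the slide.

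Zfand2a and Zfand2b are the closest pair by name and function, and their promoters are shown because only these 2 of the members had ZnO arrays wholly above control arrays. The sequences run 5′ to 3′ from 250 bases before to 50 bases after the gene start and come from RefSeq (assembly GRCr8), on the plus strand of chr12:20275200-20275499 for Zfand2a and of chr9:84113946-84114245 for Zfand2b. Capitals mark matches on either strand to the heat shock element (TTCNNGAA or GAANNTTC), the metal response element core (TGCACNC or TGCGCNC), the antioxidant response element (TGACNNNGC) and the cAMP response element (TGACGTCA).
Zfand2a: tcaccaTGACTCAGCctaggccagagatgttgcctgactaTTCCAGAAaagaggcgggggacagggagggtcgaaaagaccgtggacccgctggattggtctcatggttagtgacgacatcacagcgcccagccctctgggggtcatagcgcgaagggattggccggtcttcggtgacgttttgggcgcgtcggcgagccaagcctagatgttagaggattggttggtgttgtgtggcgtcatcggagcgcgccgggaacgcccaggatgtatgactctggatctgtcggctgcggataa
Zfand2b: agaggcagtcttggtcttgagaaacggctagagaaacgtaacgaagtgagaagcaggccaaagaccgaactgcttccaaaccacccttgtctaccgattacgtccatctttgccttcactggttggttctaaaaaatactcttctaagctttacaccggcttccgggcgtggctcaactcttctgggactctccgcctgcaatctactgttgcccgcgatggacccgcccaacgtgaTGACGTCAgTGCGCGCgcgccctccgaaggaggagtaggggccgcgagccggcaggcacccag

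The Zfand2a promoter held the heat shock letters TTCCAGAA at bases 41 to 48 of this window, and the antioxidant letters TGACTCAGC at bases 7 to 15, which also hold the AP-1 letters TGACTCA. That of Zfand2b held TGACGTCA at bases 238 to 245 and the metal response letters TGCGCGC at bases 247 to 253, with no overlap between them. Matches of this kind are common, except for those to the cAMP letters. Of 33469 rat promoters of the same length, 15.9% held the heat shock letters, 24.2% the metal response letters, 12.1% the antioxidant letters and 1.83% the cAMP letters. Zfand5 had 1 match to the metal response letters and 2 to the antioxidant letters, and Zfand6 had 2 to the antioxidant letters. The promoter table matched 4 of the 6 names, without Zfand1 and Zfand3. A match is a run of letters and no measure of binding, which these arrays do not give.

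Zfand2a, the arsenite-inducible member, read 1.42, 1.43 and 1.65 on the 3 ZnO arrays and 1.07, 1.26, 1.14 and 1.33 on the 4 control arrays, in log2 intensity relative to the 75th percentile. The lowest ZnO array was above the highest control array by less than the spread within either group. Its log2 fold change was 0.30 ± 0.10 (SE; limma, unadjusted p = 0.0149, adjusted p = 0.726), a fold of 1.23 with a 95% interval of 1.06 to 1.44. Larger absolute changes were found for 7.2% of all probes tested. The probe lies at chr12:15672551-15672610 (rn4, as the files give it), for which the files state no exon or UTR.

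The groups of Zfand2a separated only once the arrays were scaled. Before scaling, its background-corrected intensity was 2617, 3522 and 5040 on ZnO arrays and 2763, 3563, 2594 and 2411 on control arrays, so that the groups overlapped. ZnO replicate 3, with the highest of these intensities, also had the highest 75th percentile of all arrays (1603). Other scalings gave Zfand2a log2 fold changes of 0.28 (quantile normalization) and 0.27 (centring on the median), with unadjusted p-values from limma of 0.0241 and 0.0387. Centring on the spiked-in E1A control RNA gave 0.40 at an unadjusted p of 0.422 (limma), a setting in which all probes with a p under 0.05 numbered 36, against 1188 with the 75th percentile. Without ZnO replicate 3, the unadjusted p of Zfand2a was 0.0612 (limma).

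**Figure D1:**
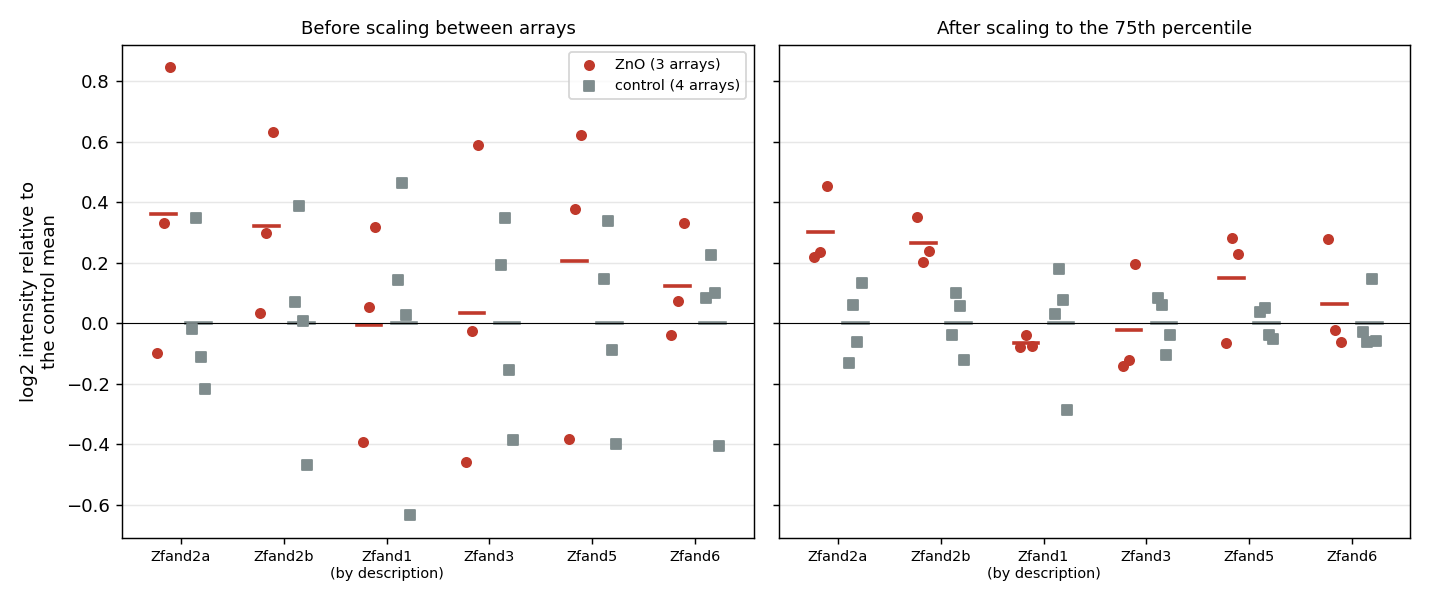
Log2 intensity relative to the control mean (vertical axis) for each Zfand gene (horizontal axis), before scaling (left) and after scaling to the 75th percentile (right); red circles are the 3 ZnO arrays, grey squares the 4 control arrays and bars the group means. Before scaling the groups overlap for every gene, and after it only Zfand2a and Zfand2b have every red circle above every grey square.

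Zfand2b, the member made without stress, read -0.25, -0.40 and -0.36 on ZnO arrays and -0.64, -0.50, -0.54 and -0.72 on control arrays. All ZnO arrays were above all control arrays here as well. This gave a log2 fold change of 0.27 ± 0.08 (SE; limma, unadjusted p = 0.0124, adjusted p = 0.724), a fold of 1.20 with a 95% interval of 1.05 to 1.37. Of all probes, 9.52% had a larger absolute change. Its intensities before scaling were 822, 989 and 1246 on ZnO arrays and 844, 1051, 808 and 580 on control arrays, and overlapped. The probe lies at chr9:74454606-74454665 (rn4).

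Both genes stood at about the same difference, although Zfand2a is the inducible one in other cells. Within each array, Zfand2a minus Zfand2b was 1.67, 1.83 and 2.02 log2 units on ZnO arrays and 1.71, 1.76, 1.68 and 2.06 on control arrays, a quantity that scaling by a constant cannot change. The size of this gap depends on the 2 probes and says nothing of which RNA is more abundant. The groups overlapped, and the gap differed by 0.04 (1.84 ± 0.17, SD, n = 3, on ZnO arrays and 1.80 ± 0.17, SD, n = 4, on control arrays; two-sided exact permutation test, p = 0.8, where the 35 splits of the arrays allow no p under 0.0571, so that the test could not have passed 0.05). Without control replicate 3 the difference was -0.0025, and without ZnO replicate 3 it was -0.05. The probes of the pair share no run longer than 5 bases.

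**Figure D2:**
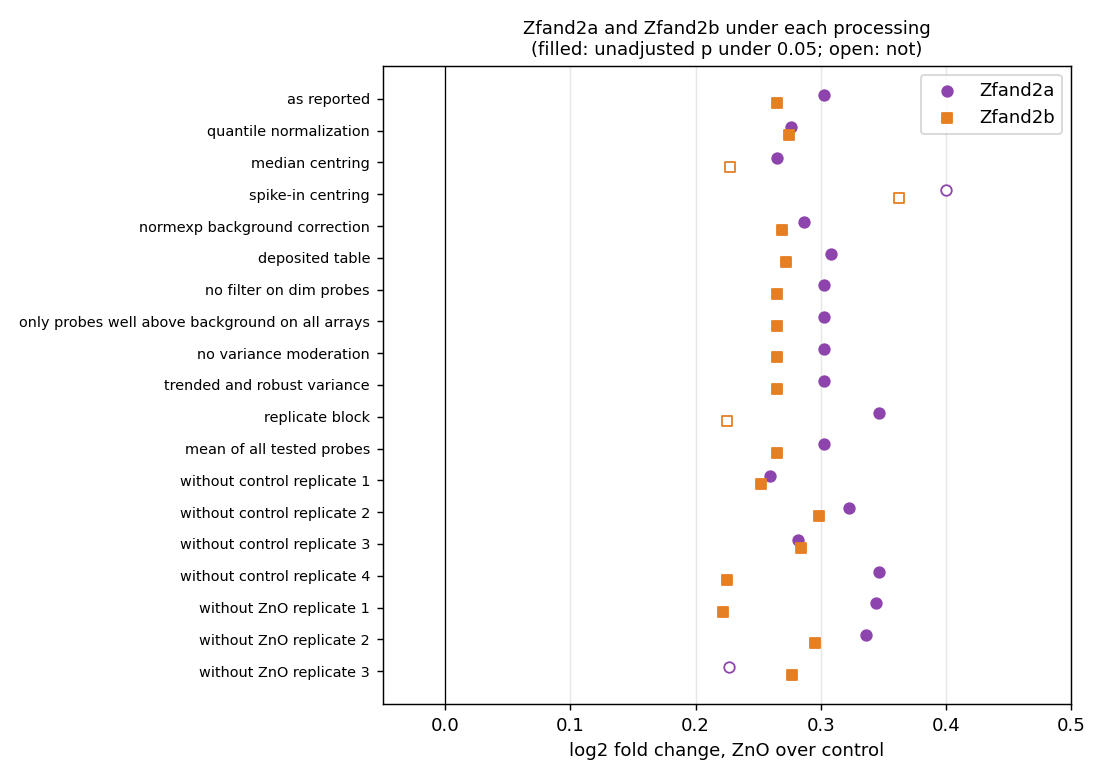
Log2 fold change of ZnO over control (horizontal axis) of Zfand2a (purple circles) and Zfand2b (orange squares) as reported and under each of 18 alternative settings (vertical axis); filled symbols have an unadjusted p under 0.05 from limma and open ones do not. Every value is above 0, from 0.23 to 0.40 for Zfand2a and from 0.22 to 0.36 for Zfand2b, and both symbols are open with spike-in centring.

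Zfand5, the A20 and AN1 protein known from muscle wasting and as an activator of the proteasome, did not pass. Its bright probe (chr1:224448269-224448328, rn4) read -0.51, -0.16 and -0.21 on ZnO arrays and -0.40, -0.39, -0.48 and -0.49 on control arrays. A pair of ZnO arrays lay above every control array, and ZnO replicate 1 lay below them all. The log2 fold change was 0.15 ± 0.10 (SE; limma, adjusted p = 0.931), with a fold interval of 0.95 to 1.30. Without ZnO replicate 1 it was 0.26 (unadjusted p = 0.0107, adjusted p = 0.497). The other 2 probes of Zfand5 were well above background on 3 and on 1 of the 7 arrays and were not tested.

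Zfand6, a relative of Zfand5 that takes part in TNF and NF-kB signalling, read 0.58, 0.28 and 0.24 on ZnO arrays and 0.27, 0.24, 0.45 and 0.24 on control arrays. The groups overlapped, with 1 higher array in each of them. The log2 fold change was 0.06 ± 0.11 (SE; limma, adjusted p = 0.999), with a fold interval of 0.88 to 1.24 (probe at chr1:140897205-140897264 on rn4). ZnO replicate 1 was thus the lowest ZnO array for Zfand5 and the highest for Zfand6. Without it the value of Zfand6 was -0.04.

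Zfand3, a member first described in testis, read 0.32, 0.34 and 0.66 on ZnO arrays and 0.55, 0.52, 0.36 and 0.42 on control arrays. ZnO replicate 3 was above all control arrays and the other ZnO arrays were below them. Its log2 fold change was -0.02 ± 0.10 (SE; limma, adjusted p = 0.999), with a fold interval of 0.83 to 1.16 (probe at chr20:8523357-8523416 on rn4). The sign of so small a value turned with the scaling and with single arrays, as the closing section lists.

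Zfand1 by description read -2.40, -2.37 and -2.40 on ZnO arrays and -2.29, -2.15, -2.25 and -2.61 on control arrays. All ZnO arrays lay between the lowest and the next lowest control array. The log2 fold change was -0.06 ± 0.11 (SE; limma, adjusted p = 0.999), with a fold interval of 0.80 to 1.15. The probe lies at chr2:93407165-93407224 (rn4). With the settings used here, no interval of a member gene reached the fold of 1.5 that the study required, in either direction.

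**Figure D3:**
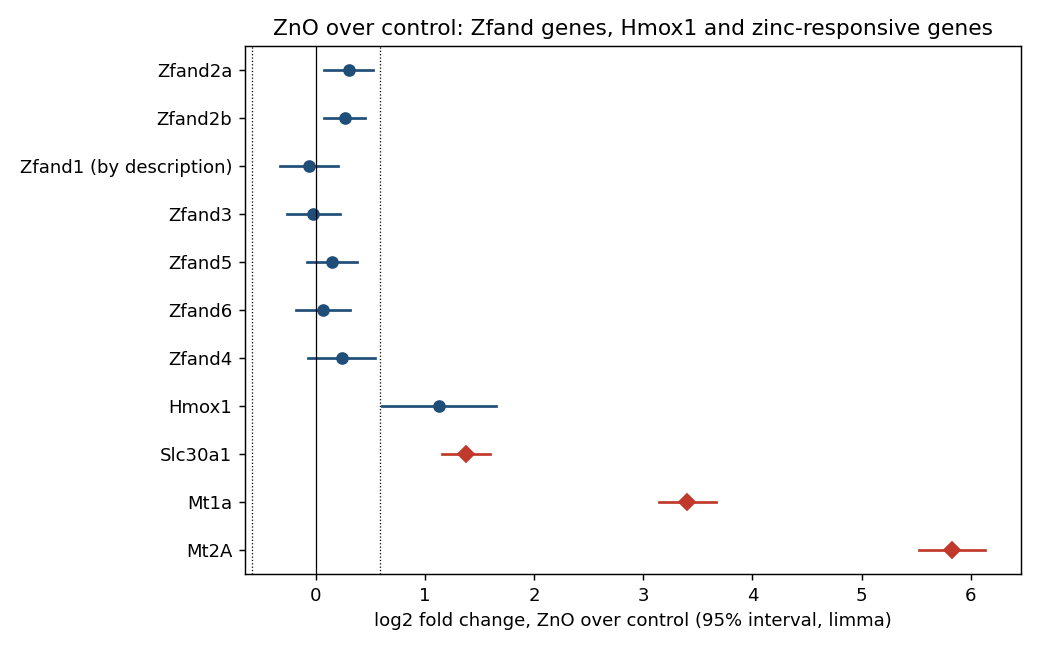
Log2 fold change of ZnO over control cells with its 95% interval from limma (horizontal axis) for the Zfand genes, Hmox1 and 3 zinc-responsive genes (vertical axis); red diamonds passed at an adjusted p under 0.05, blue circles did not, and dotted lines mark a fold of 1.5. The intervals of Zfand2a and Zfand2b lie above 0 and below the dotted line, whereas Slc30a1, Mt1a and Mt2A stand at 1.37, 3.40 and 5.83.

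Over all 7 arrays, Zfand2a and Zfand2b had a Pearson r of 0.63, the highest of the 10 pairs among the 5 members, and Zfand3 and Zfand6 had the lowest, at -0.66. The points share arrays, scaling and exposure, and the coefficients are given as a description. The genes most like Zfand2a over the 7 arrays, of 9998 named genes ranked, were Gorasp1 (a Golgi stacking protein; r = 0.99), Pwwp2b (a chromatin reader; r = 0.99) and Hmox1 (r = 0.98). Their log2 fold changes were 0.16 for Gorasp1 (adjusted p = 0.843 from limma), 0.40 for Pwwp2b (adjusted p = 0.678) and 1.13 for Hmox1 (adjusted p = 0.415).

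Hmox1 encodes heme oxygenase, which like ZFAND2A is induced by arsenite in human cells. It read 4.32, 4.53 and 4.92 on ZnO arrays and 3.08, 3.57, 3.27 and 3.93 on control arrays. The highest array of Hmox1 and of Zfand2a was the same in each group, ZnO replicate 3 and control replicate 4. Hmox1 was picked above for its likeness to Zfand2a over these same arrays, so this match is no separate result. All ZnO arrays were above all control arrays for Hmox1, and its log2 fold change of 1.13 had a standard error of 0.22. Of the 13 measured genes of the arsenite and oxidant response, 0 passed in either direction. The list was chosen with earlier results of these data known, so its share is given only as a description. Before adjustment, 4 of the 13 had a p under 0.05, each of them higher, against 3.06% of all probes. The others of these 4, named after their values were seen, were Srxn1 (0.34, adjusted p = 0.418), which repairs oxidized peroxiredoxins, the glutathione-synthesis subunit Gclc (0.17, adjusted p = 0.822) and Osgin1 (0.24, adjusted p = 0.834), with all ZnO arrays above all control arrays in each. The thioredoxin reductase Txnrd1 had the lowest value of the list, at -0.08 (adjusted p = 0.999). The median of the list was 0.13.

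HSF1 drives ZFAND2A in human cells, and its other targets are mostly chaperones. Of 24 listed, 21 were measured and 0 passed in either direction. Before adjustment only 1 of the 21 had a p under 0.05, where 5.93% of all probes did. This was Dnaja1, a cochaperone of Hsp70, which read -0.92, -0.58 and -0.61 on ZnO arrays and -1.07, -1.06, -1.12 and -1.01 on control arrays, a log2 fold change of 0.36 ± 0.10 (SE; limma, adjusted p = 0.646). Its groups did not overlap. The inducible Hsp70 genes Hspa1a and Hspa1b were on the array but not well above background on all arrays of a group. Hspa4l, an Hsp110-type chaperone, had the lowest value at -0.18 (adjusted p = 0.844), and the median of the list was 0.03.

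The partners on which AN1 proteins act had medians near 0. For the 26S proteasome, all 33 listed subunits were measured, with 0 past the test, a median of 0.04 and a range from -0.04 for Psmd13 (adjusted p = 0.999 from limma) to 0.17 for Psmd7 (adjusted p = 0.843), both subunits of the regulatory particle. Before adjustment, limma gave Psmd7 alone of the 33 a p under 0.05 (0.0499), where 5.93% of all probes had one. Of 31 listed genes of p97 and its cofactors, 25 were measured and 0 passed, with a median of 0.00. Before adjustment 2 of the 25 had a p under 0.05 (5.93% of all probes), both below the control level, namely Ubxn7, an adaptor between p97 and ubiquitin ligases (-0.50, standard error 0.20, adjusted p = 0.826), and Ube4b, a ubiquitin chain assembly factor named after its value was seen (-0.19, adjusted p = 0.822). The probe of Ubxn7 was dim, with means of -5.65 on ZnO arrays and -5.15 on control arrays, though well above background on every array. Nsfl1c (p47), the cofactor of p97 in membrane fusion, had the highest value at 0.12 (adjusted p = 0.937). Vcp, which is p97 itself, was at -0.08 ± 0.07 (SE; adjusted p = 0.953) and was also picked with its value known.

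Stress granule proteins, 17 measured of 18, also had 0 past the test and a median of 0.00. Before adjustment 1 of the 17 had a p under 0.05 (5.93% of all probes), Atxn2, an RNA-binding protein of these granules (0.25, adjusted p = 0.836 from limma). The probe of Atxn2 was dim as well, with means of -5.11 on ZnO arrays and -5.35 on control arrays. Nufip2 was lowest at -0.18 (adjusted p = 0.914). Among the 10 partners of Zfand5 and Zfand6 in NF-kB signalling, 0 passed and the median was 0.05. Before adjustment 1 of the 10 had a p under 0.05 (5.93% of all probes). The ubiquitin ligase Traf6 was highest at 0.24 ± 0.09 (SE; unadjusted p = 0.031, adjusted p = 0.817), with all ZnO arrays above all control arrays, and the NF-kB subunit Rela was lowest at -0.09 (adjusted p = 0.971).

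The 5 measured relatives with an AN1 or A20 finger outside the member list had a median of 0.05 and 0 past the test, before or after adjustment. Before adjustment 5.93% of all probes had a p under 0.05, and 5 genes are too few to be read against that share. These relatives ran from -0.15 for the deubiquitinase Otud7b (adjusted p = 0.985 from limma) to 0.24 for Zfand4 (adjusted p = 0.902). Zfand4 had 3 probes, of which the brightest gave this value, another gave 0.02 and the third was not well above background on any array. Of the 127 measured genes of all these lists together, those that passed were the 3 zinc-responsive genes. Their rise after ZnO was known from the study when they were listed.

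**Figure D4:**
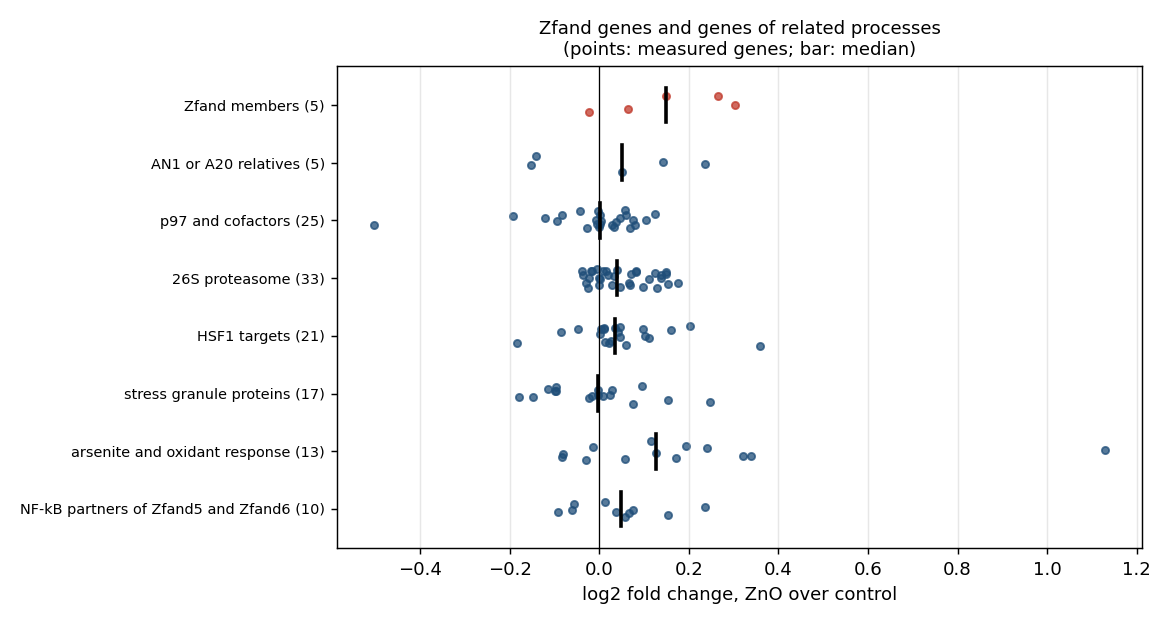
Log2 fold change of ZnO over control cells (horizontal axis) for each measured gene (points) of the Zfand members and 7 related lists (vertical axis, number of measured genes in brackets), with black bars at the medians. Medians lie between 0.00 and 0.15, and Hmox1, at 1.13, stands apart from the other points.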

How the data were processed

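RNA of NR8383 cells was measured on 1-colour Agilent rat arrays (3 ZnO, 4 control). The authors extracted the deposited spot intensities with Agilent Feature Extraction 11.0.1.1 (submitters' processing notes), which subtracts background and removes trends within an array. The deposited table of all arrays, also an intensity, equals the scanner's median intensity at 100% of spots. GeneSpring percentile normalization by the authors is in neither file. Here, log2 intensity was set relative to each array's 75th percentile over 58717 non-control spots, spots of a probe were averaged without outlier spots, and probes well above background on all arrays of a group were tested (20050) with limma 3.58.1 in R 4.3.3, with Benjamini-Hochberg adjustment. A gene outside the member list took its brightest tested probe. Named were every member, the 3 zinc-responsive genes, the highest and lowest gene of each list with any that passed, and the 3 genes most like the member with the largest change. Srxn1, Gclc, Osgin1, Ube4b, Vcp, Hspa1a and Hspa1b were named outside this rule, with their values known. So were the markers Itgax, Marco, Vwf, Lyz2, Tyrobp, Fcer1g, Cd68, Cd14 and Msr1. Members and lists were chosen with earlier results of these data known. The labels number the replicates, and the text of the study calls them biological. It describes 4 for each NP, where ZnO has 3 arrays here. Promoters were searched with Python 3.11.15 and plots drawn with matplotlib 3.10.9. The fit was tested on simulated data. Alternatives were quantile normalization, median or E1A spike-in centring (278 spots), normexp (offset 50), the deposited table scaled to its 75th percentile, other filters on dim probes, other variance models, a replicate block and each array left out. The number of arrays limits the precision.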

Additional observations from a re-analysis of the deposited data

Results flagged for a closer look

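Zfand6 on control replicate 3 read 0.45 (0.4478), apart from the other control arrays, of which the next was 0.27. The gap was 0.834 of the range of the control group, above the 95% critical value of Dixon's test for 4 samples. Of 6 genes checked in the control group, 1 was marked, and chance marks about 5% of groups. Without this array the log2 fold change of Zfand6 was 0.11 (unadjusted p = 0.331 from limma).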

How the results depend on the processing

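The count of members past the adjusted threshold was 0 under each of the 18 alternatives. Zfand2a kept its direction in all 18, at log2 fold changes of 0.23 to 0.40 (adjusted p = 0.5 to 1 from limma), and was under an unadjusted p of 0.05 in 16. Zfand2b did so too, at 0.22 to 0.36 (adjusted p = 0.543 to 1), and was under that p in 15. The count of members at an unadjusted p under 0.05, an alternative added after the data were seen, was 1 with median centring, 0 with spike-in centring and 1 to 3 with each array left out in turn (1 without ZnO replicate 3, 3 without ZnO replicate 1). Spike-in centring, which moved the median of all probes to 0.09, turned Zfand1 by description to 0.03 (0.0339) and Zfand3 to 0.07 (0.0742). With single arrays left out, Zfand3 ran from -0.1324 to 0.0363 (above 0 without control replicate 1, ZnO replicate 1 or ZnO replicate 2), Zfand6 from -0.0418 to 0.1281 (below 0 without ZnO replicate 1) and the gap between Zfand2a and Zfand2b from -0.0505 to 0.1221; the cause was not tested. The related lists had 3 calls, or 2 with spike-in centring, no filter, no variance moderation or the block, where Slc30a1 did not pass, and 2 at the thresholds of the study. Replicate numbers are shared between the groups, but same-numbered arrays did not deviate together (r = -0.09, 0.21 and -0.23), and 1 of 6 arrays matched its own number best. With the replicate number as a block, limma gave 1 member an unadjusted p under 0.05 (Zfand2a, 0.0252; Zfand2b, 0.0828), and 4 of all probes passed after adjustment. Control replicate 4 has no ZnO array of its number and adds nothing to that fit; without it and without the block, 7 probes passed. Over all probes, 5 passed with spike-in centring or no filter on dim probes. Each member had 1 tested probe, and the mean over tested probes of the listed genes left their count at 3. A slide block could not be fitted, all arrays being on 1 slide.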
